A study of Mus musculus with 21 samples.

Results

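The genes described here are a module of 35 named genes of glucose and lactate transport, glycolysis, the handling of pyruvate, and the response to low oxygen, followed across brain microglia and cells that replaced them. Members were taken as the rows of the deposited table of 57180 genes whose symbol is one of the 35 names. All 35 names were found, on 36 rows, because Aldoa has 2 rows. Of these rows 34 passed the filter on low counts and were tested. Vegfa, the gene of a vascular growth factor induced by low oxygen, held 3 counts over all libraries and was not tested. The second Aldoa row, which held 20 counts over all libraries, was not tested either.

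Glycolysis splits glucose into pyruvate in the cytosol and yields a little ATP without oxygen. Pyruvate then has alternative fates. Lactate dehydrogenase interconverts it with lactate, or it enters mitochondria and is oxidised by pyruvate dehydrogenase, which the pyruvate dehydrogenase kinases switch off. When oxygen is scarce, prolyl hydroxylases no longer mark the transcription factor HIF-1 for destruction, and HIF-1 raises many glycolytic genes along with Pdk1 and Ldha. Resting microglia oxidise fuel in mitochondria, and activated ones are known to draw more on glycolysis.

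The study sorted cells from adult mouse brain and sequenced their RNA after saline or 5 days after seizures induced with kainic acid, an agonist of glutamate receptors. Transplanted microglia (MG) carried Osb-GFP and were sequenced in 3 libraries after saline and 4 after seizures. Transplanted monocyte-derived microglia-like cells (MLC) also carried Osb-GFP, in 3 saline and 6 seizure libraries. Microglia of mice without a transplant (NoTx) had the genotype CX3CR1-CreER+/-; CSF1R fl/fl, in which a Cre driven by the Cx3cr1 promoter can delete a receptor needed for microglial survival, in 2 saline and 3 seizure libraries. The genotype of the transplant hosts, and whether the NoTx mice received an inducer of Cre, are not given in the sources used here. In comparisons with NoTx, the effects of genotype and of transplantation cannot be told apart. All seizure libraries belong to batch 1 and all saline libraries to batch 2 of the labels, and the effects of seizure and of batch cannot be told apart either. The replicates are labelled as biological, and p-values measure the spread between these libraries. In RNA of sorted pools, fewer cells of a type and less RNA per cell cannot be told apart.

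Libraries held 36.5 to 50.3 M (mega) counts after saline and 6.57 to 73.8 M after seizures. At equal depth, 11540 to 11948 genes had 10 or more counts in saline libraries, against 8925 to 9680 in MG seizure replicates 3 and 4 and MLC seizure replicate 5, and 10253 to 11694 in the other 10 seizure libraries. MLC seizure replicates 3 and 6 carry 11b in their library names, and the rest of their code repeats that of replicates 2 and 4, so whether the 6 MLC seizure libraries come from separate animals cannot be told from the names. Levels are in CPM (counts-per-million), scaled to an adjusted library total, or to the plain library total for Xist and Y-linked genes. Xist was above 50 CPM in 7 of 7 MG, 0 of 9 MLC and 2 of 5 NoTx libraries. The sum of Y-linked genes was above 50 CPM in 6, 9 and 3 of these, so most MG libraries held both. The labels do not say whether a library pools animals. Sex-linked expression moved with cell origin, and its part in the results below was not tested. The summed level of 8 microglial markers was 46610 to 76420 CPM over the MG libraries of both treatments, 49070 to 80240 in NoTx and 11460 to 23750 in MLC. The sum of 8 markers of monocyte-derived macrophages was 22350 to 80160 CPM in MLC, at most 2021 in MG and at most 3735 in NoTx. The labels of MG and MLC cells and their markers thus went together. The 6 markers of astrocytes summed to 431 to 504 CPM in MG saline and 11.6 to 33.9 in MLC saline libraries, of which Slc1a3 was 426 to 495 CPM in MG. The other 5 summed to 5.09 to 9.11 CPM in MG and 9.49 to 14.8 CPM in MLC.

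Among the genes of this module, lactate dehydrogenase B (Ldhb) set the MLC cells apart. It was 6.58-fold lower in MLC than in MG cells after saline and 8.69-fold lower after seizures. Pdk1, a kinase that inhibits pyruvate dehydrogenase, was 6.35-fold lower in MLC than in MG cells after seizures. Ldha, the other main lactate dehydrogenase gene, was 2.16-fold lower there, a call that did not hold under most other settings. No member was called higher in MLC. After saline 1 of 34 members passed the test between MLC and MG, where 1.58% of all 18867 genes tested did (0.806% lower), and after seizures 3 of 34 passed, where 5.88% of all genes did (3.37% lower). The median log2 fold change of the 34 members was -0.59 after saline and -0.67 after seizures, against 0 over all genes tested in each, and 26 of 34 members had a negative value in each. Over the alternatives the median ran from -0.70 to -0.37 after saline, the latter without MG replicate 3, and from -0.89 to -0.38 after seizures, the latter with GC correction.

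**Figure D1:**
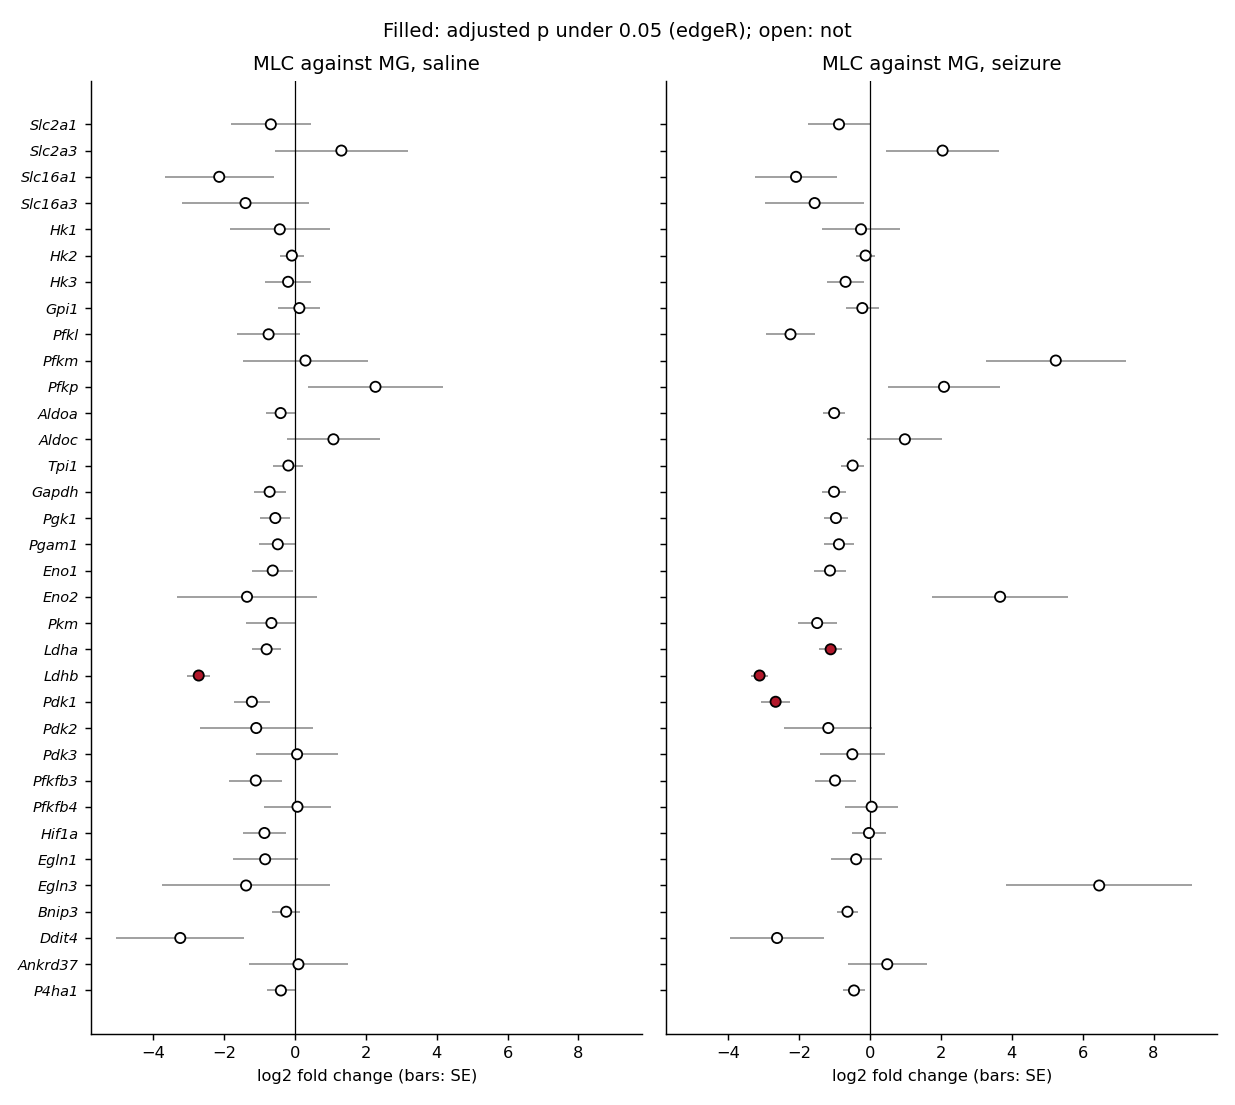
Log2 fold change of MLC against MG cells (x axis; bars, standard error from edgeR) for the 34 tested members (y axis, ordered by role), after saline on the left and after seizures on the right. Filled points passed an adjusted p of 0.05: Ldhb after saline, and Ldhb, Pdk1 and Ldha after seizures.

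The upstream windows of the 3 genes called between MLC and MG cells are shown because HIF-1 binds a short core that can be read off the sequence. Each is the 250 bases before a RefSeq transcript start in build GRCm38.p6, printed 5′ to 3′ on the strand of the gene, and capitals mark every ACGTG or GCGTG on either strand (CACGT or CACGC when read on the printed strand), overlapping matches being merged. Ldhb lies at chr6:142507958-142508207 on the minus strand, Ldha at chr7:46845554-46845803 on the plus strand and Pdk1 at chr2:71872974-71873223 on the plus strand.
Ldhb: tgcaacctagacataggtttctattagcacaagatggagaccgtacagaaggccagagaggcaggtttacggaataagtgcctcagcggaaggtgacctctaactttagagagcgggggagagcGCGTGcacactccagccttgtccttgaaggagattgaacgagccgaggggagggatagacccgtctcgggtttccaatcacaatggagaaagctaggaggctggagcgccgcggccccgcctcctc
Ldha: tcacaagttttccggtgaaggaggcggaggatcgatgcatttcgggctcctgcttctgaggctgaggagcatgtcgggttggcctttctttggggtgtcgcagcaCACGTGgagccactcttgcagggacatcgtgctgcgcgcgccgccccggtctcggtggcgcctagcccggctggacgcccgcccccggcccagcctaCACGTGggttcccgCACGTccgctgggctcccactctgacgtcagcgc
Pdk1: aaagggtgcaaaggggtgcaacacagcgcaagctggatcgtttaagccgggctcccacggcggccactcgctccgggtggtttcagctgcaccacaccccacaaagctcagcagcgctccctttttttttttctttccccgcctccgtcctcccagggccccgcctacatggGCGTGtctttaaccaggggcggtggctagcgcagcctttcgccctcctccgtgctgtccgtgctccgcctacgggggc
The Ldha window holds 3 capitalised stretches, and those of Ldhb and Pdk1 hold 1 each. Of all 32851 RefSeq windows of this length, 38.6% held the core, as did 39 of the 49 windows of members (79.6%). The members were chosen as glycolysis and hypoxia genes, and the windows were not matched for GC content. The difference between these shares was therefore not tested. RefSeq entries matched 34 of the 35 members (all but Slc2a3). A match describes the letters of a window and is not evidence of binding.

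Ldhb encodes the lactate dehydrogenase subunit that predominates in oxidative tissues such as heart. Its level after saline was 1142, 1506 and 1170 CPM in the 3 MG libraries, 236.5, 182 and 162 CPM in the 3 MLC libraries and 1370 and 1891 CPM in the NoTx libraries. After seizures it was 1586, 1496, 2678 and 1970 CPM in MG cells and 2456, 2170 and 1384 CPM in NoTx cells. The 6 MLC seizure libraries ran from 163 CPM, with a median of 203, to 318.5 CPM. The highest MLC library of either treatment lay below the lowest MG and NoTx libraries, so MLC did not overlap with the other cells. The microglial marker sum was lower in the same libraries, and its part in the Ldhb difference was not tested.
The log2 fold change of Ldhb between MLC and MG cells was -2.72 (SE 0.32, edgeR adjusted p = 1.2e-05) after saline and -3.12 (SE 0.24, adjusted p = 1.1e-08) after seizures. Against NoTx it was -3.07 (SE 0.34, adjusted p = 8.3e-06) after saline and -3.17 (SE 0.26, adjusted p = 2.5e-08) after seizures, or 8.43-fold and 9.01-fold lower. These comparisons share the MLC libraries. Ldhb kept its call under each of the 16 and 20 alternative settings run against MG, with a largest adjusted p of 0.000595, and under each of the 15 and 19 run against NoTx. The difference between the seizure and the saline contrast of MLC and MG was -0.40 (SE 0.39), not called.

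**Figure D2:**
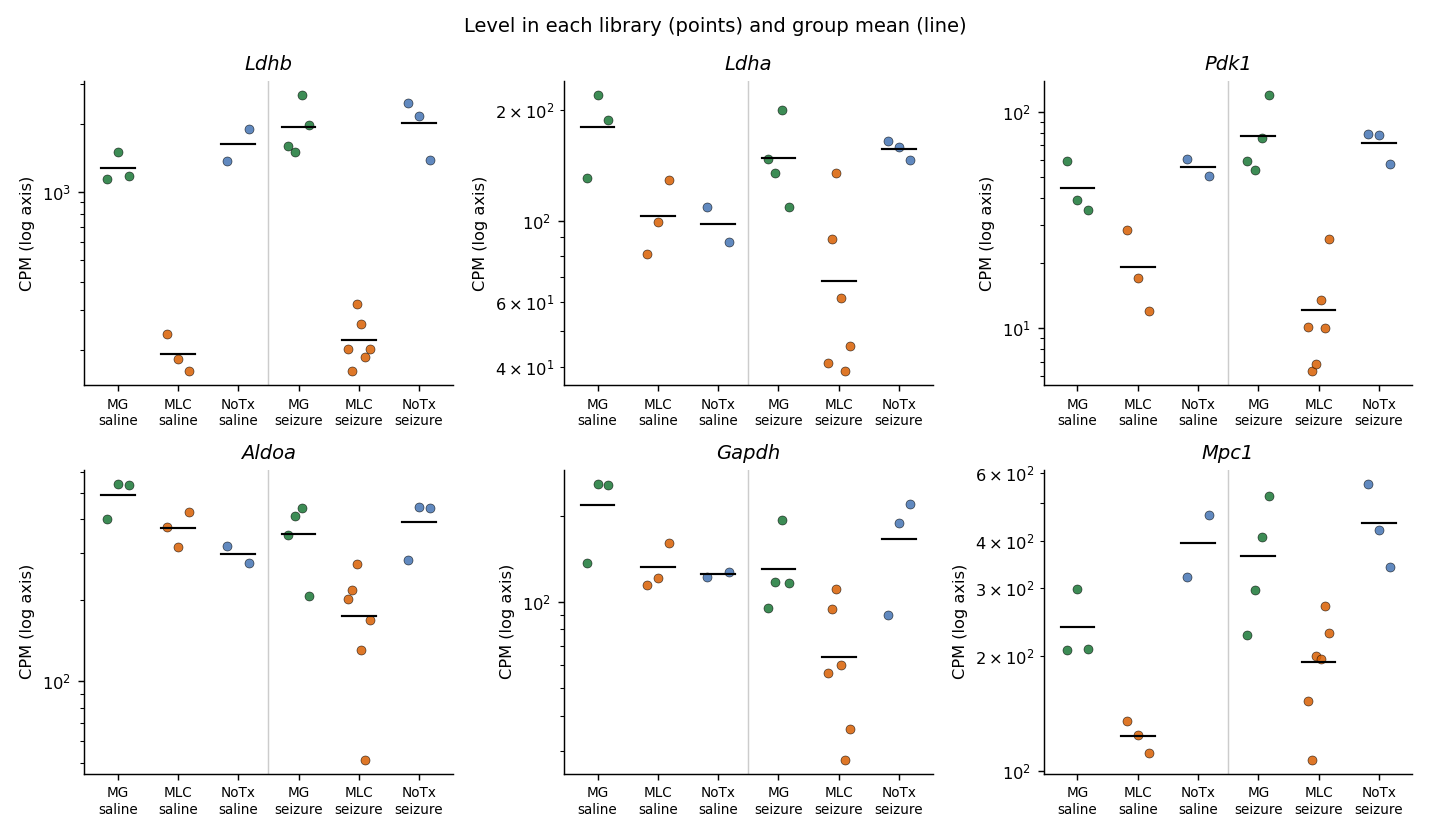
CPM on log axes of 6 genes in every library (points) with group means (lines), for saline to the left and seizure to the right of the grey line in each panel. MLC libraries stay at or below 318.5 CPM for Ldhb while the MG and NoTx libraries start at 1142 CPM; Ldha, Aldoa and Gapdh overlap more.

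Ldha encodes the subunit that predominates in muscle and in cells making lactate. Its level after seizures was 147, 135, 201 and 109 CPM in MG cells and 165, 159 and 146 CPM in NoTx cells. The 6 MLC seizure libraries ran from 38.8 CPM, with a median of 53.4, to 134.6 CPM. MLC replicate 3, one of the libraries coded 11b, was the highest of these and overlapped with MG, and all 6 lay below NoTx. The log2 fold change was -1.11 (SE 0.32, edgeR adjusted p = 0.038) against MG and -1.20 (SE 0.34, adjusted p = 0.038) against NoTx. The call against MG was lost in 14 of 20 alternatives, with adjusted p up to 0.241 without the 3 libraries of few genes, and that against NoTx in 11 of 19, with adjusted p up to 0.145. Single left-out libraries that ended the call against MG were MG replicates 1, 2 and 3 (adjusted p = 0.0651, 0.0546 and 0.133) and MLC replicates 1, 4, 5 and 6 (0.0768, 0.0758, 0.0801 and 0.0908). After saline Ldha was 131, 220 and 188 CPM in MG, 81.0, 99.0 and 129.5 CPM in MLC, and 109 and 87.2 CPM in NoTx. The 3 MLC saline libraries lay below the MG libraries, but the difference was not called (log2 fold change -0.80, SE 0.41, adjusted p = 0.677).
Levels per kilobase were divided by the union of all annotated exons, 3.31 kb for Ldha and 1.57 kb for Ldhb. The size of a share depends on these lengths. Per kilobase, Ldhb made up 92.9% to 94.9% of the summed level of Ldha and Ldhb in MG saline libraries. It made up 96.4% to 97.9% in NoTx saline libraries, but 72.5% to 86.0% in MLC saline libraries. In plain CPM, MLC saline replicate 3, with the lowest share, had 161.7 for Ldhb and 129.5 for Ldha. After seizures the share was 95.8% to 97.4% in MG, 95.2% to 96.9% in NoTx and 79.4% to 91.3% in MLC. Ldhb thus remained the larger part in all libraries, and its share in every MLC library was below that in every MG and NoTx library. Among the 35 members, Ldhb had the highest mean level per kilobase in MG (811 ± 129 CPM per kilobase, SD, n = 3, after saline), in NoTx and in MLC seizure libraries (142 ± 36.3, n = 6). In MLC saline libraries Aldoa (128 ± 18.9), Ldhb (123 ± 24.6) and Eno1 (122 ± 20.1, n = 3 each) lay within their SDs of each other. In plain CPM Ldhb was also the highest member in MG and NoTx, but not in MLC. The MLC seizure means were 329 CPM for Eno1, 312 for Hk2, 266 for P4ha1 and 222 for Ldhb. The MLC saline means were 658 CPM for Eno1, 372 for Aldoa and 193.5 for Ldhb. The rank of Ldhb in MLC thus depended on the exon lengths used.

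**Figure D3:**
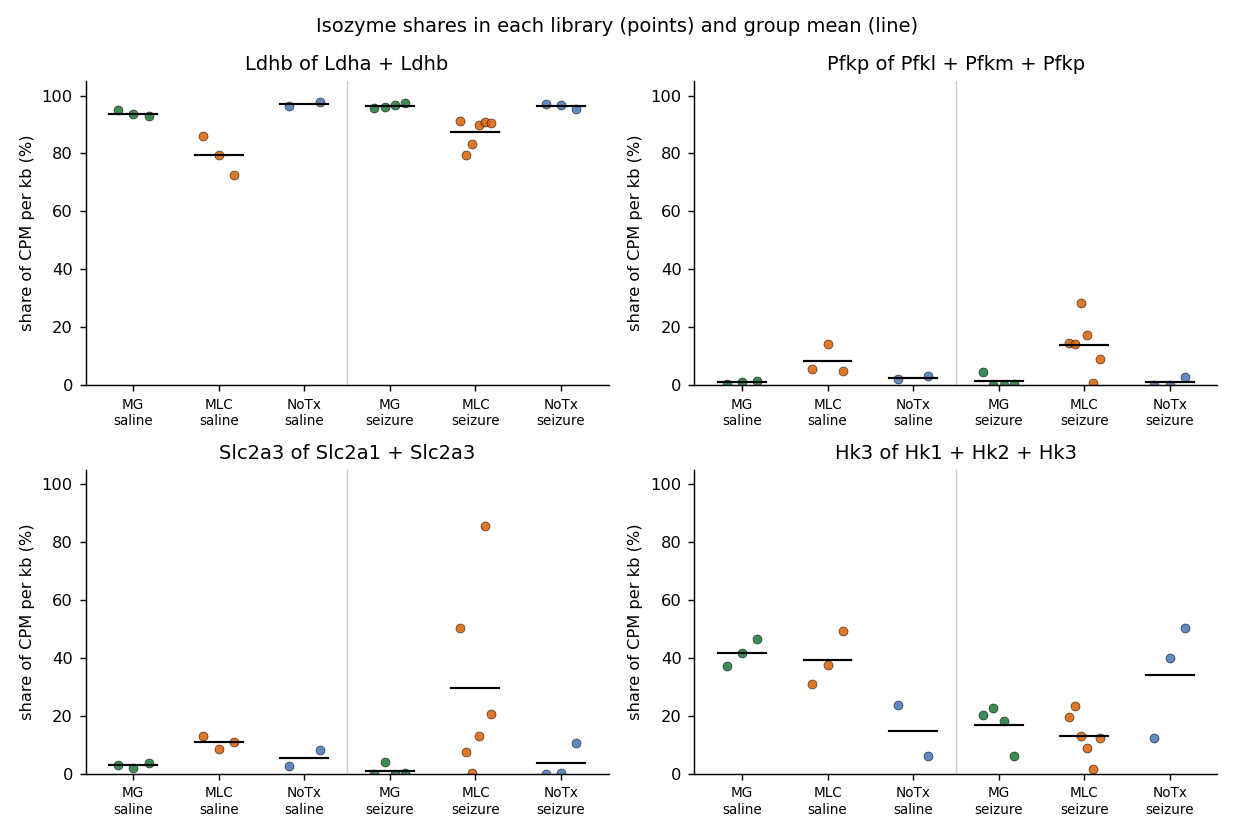
Share (%) of 1 gene in the summed CPM per kilobase of its isozymes or related transporters in every library (points) with group means (lines). The size of a share depends on the exon lengths used. Ldhb is 72.5% to 91.3% of lactate dehydrogenase in MLC and 92.9% to 97.9% in MG and NoTx libraries, while the Slc2a3 share in MLC seizure libraries spans 0.287% to 85.6%.

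Pdk1 phosphorylates pyruvate dehydrogenase and so keeps pyruvate out of mitochondrial oxidation. Its level after seizures was 59.0, 53.8, 75.4 and 119.6 CPM in MG and 79.2, 78.0 and 57.2 CPM in NoTx cells. In the 6 MLC seizure libraries it ran from 6.33 CPM, with a median of 10.1, to 25.8 CPM, and no MLC library reached the lowest MG or NoTx library. The log2 fold change was -2.67 (SE 0.40, edgeR adjusted p = 0.000127) against MG and -2.56 (SE 0.42, adjusted p = 0.00037) against NoTx. Both calls held in all alternatives run, with adjusted p up to 0.017 and 0.0147. After saline Pdk1 was 59.4, 39.0 and 35.3 CPM in MG, 28.4, 17.1 and 11.96 CPM in MLC, and 60.5 and 50.2 CPM in NoTx. The saline MLC libraries were again the lowest without overlap, but neither difference was called (log2 fold change -1.22, SE 0.51, adjusted p = 0.468 against MG; -1.53, SE 0.55, adjusted p = 0.324 against NoTx). The change of the MLC to MG difference from saline to seizure was -1.45 (SE 0.64, adjusted p = 0.893), so Pdk1 was not shown to differ more after seizures.
The other kinases were low in CPM and uneven between libraries. Pdk2 was 3.12 to 23.2 CPM in MG saline libraries and 0 to 6.06 CPM in MLC seizure libraries, 2 of which had no count. Pdk3 was at most 3.55 CPM in any saline library. It reached 10.85 and 10.77 CPM in MG seizure replicates 3 and 4 and 12.99 CPM in MLC seizure replicate 5. Per kilobase, Pdk1 made up 56.8% to 76.8% of the level of the kinases in MG seizure libraries. In MLC seizure libraries Pdk1 made up 20.2% to 64.9% and Pdk3 10.9% to 79.8%. Neither was called between any groups.

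Of the 4 carriers in the module, Slc2a1 (GLUT1) and Slc2a3 (GLUT3) import glucose, and Slc16a1 (MCT1) and Slc16a3 (MCT4) carry lactate. None was called by edgeR in any comparison, and 1 of 20 alternatives each called Slc2a3 and Slc16a1 between MLC and MG cells after seizures. Slc2a1 was 81.5 to 120.4 CPM in MG saline, 37.8 to 99.6 in MLC saline and 17.1 to 45.7 in NoTx saline libraries, so MG and MLC overlapped. After seizures it spread from 0.541 to 76.4 CPM within the MLC group alone. Slc2a3 was 9.90 to 25.0 CPM in MLC saline libraries, above the 4.54 to 9.19 CPM of MG and the 2.43 to 3.11 CPM of NoTx. Its share of the glucose transporter level per kilobase was 8.43% to 13.2% in MLC saline and 2.11% to 3.56% in MG saline libraries. In the NoTx saline libraries the share was 2.51% and 8.10%, the latter close to the lowest MLC value. Slc2a3 was one of 2 members, with Pfkp, whose MLC saline libraries all exceeded the MG saline libraries, where 10.4% of all genes tested did so. The lactate carrier Slc16a1 was 0.829 to 2.10 CPM in MLC saline and 3.76 to 11.3 CPM in MG saline libraries. Slc16a3 was 2.48 to 35.6 CPM in MLC saline libraries, overlapping with 20.5 to 63.9 CPM in MG.

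Hexokinase traps glucose in the cell as its phosphate. Hk2, a form bound to mitochondria that many activated cells raise, was the most even of the 3 hexokinase genes. It was 194 to 228 CPM in MG saline, 186 to 214 in MLC saline and 213 to 340.4 in NoTx saline libraries. After seizures it was 220 to 412 CPM in MG, 234.5 to 560.4 in MLC and 189 to 299 in NoTx cells. The MLC seizure libraries all lay above the MLC saline libraries, which 1.23% of all genes did, but the difference was not called (log2 fold change 0.63, SE 0.30, adjusted p = 0.41). Hk3, a form found in myeloid blood cells, made up 37.3% to 46.4% of hexokinase level per kilobase in MG saline libraries. The share was 30.9% to 49.2% in MLC saline and 6.01% to 23.6% in NoTx saline libraries. After seizures it was 6.17% to 22.5% in MG, 1.61% to 23.4% in MLC and 12.4% to 50.2% in NoTx libraries. Hk1 was at most 33.0 CPM in any library.
Gpi1, the isomerase after hexokinase, was 74.7 to 145 CPM in MLC saline and 75.9 to 115 CPM in MG saline libraries. Phosphofructokinase commits sugar to glycolysis, and most of it per kilobase was the liver form Pfkl. Pfkl was 212 to 305 CPM in MG saline and 91.1 to 194 CPM in MLC saline libraries, without overlap. After seizures the range was 4.29 to 335 CPM in MG and 9.88 to 110 CPM in MLC cells (log2 fold change -2.25, SE 0.69, edgeR adjusted p = 0.0574). The platelet form Pfkp was 20.5 to 31.2 CPM in MLC saline and 2.07 to 8.22 CPM in MG saline libraries, or 4.88% to 14.2% against 0.473% to 1.29% of phosphofructokinase level per kilobase. The muscle form Pfkm stayed at 1.43 to 8.12 CPM in all saline libraries.

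**Figure D4:**
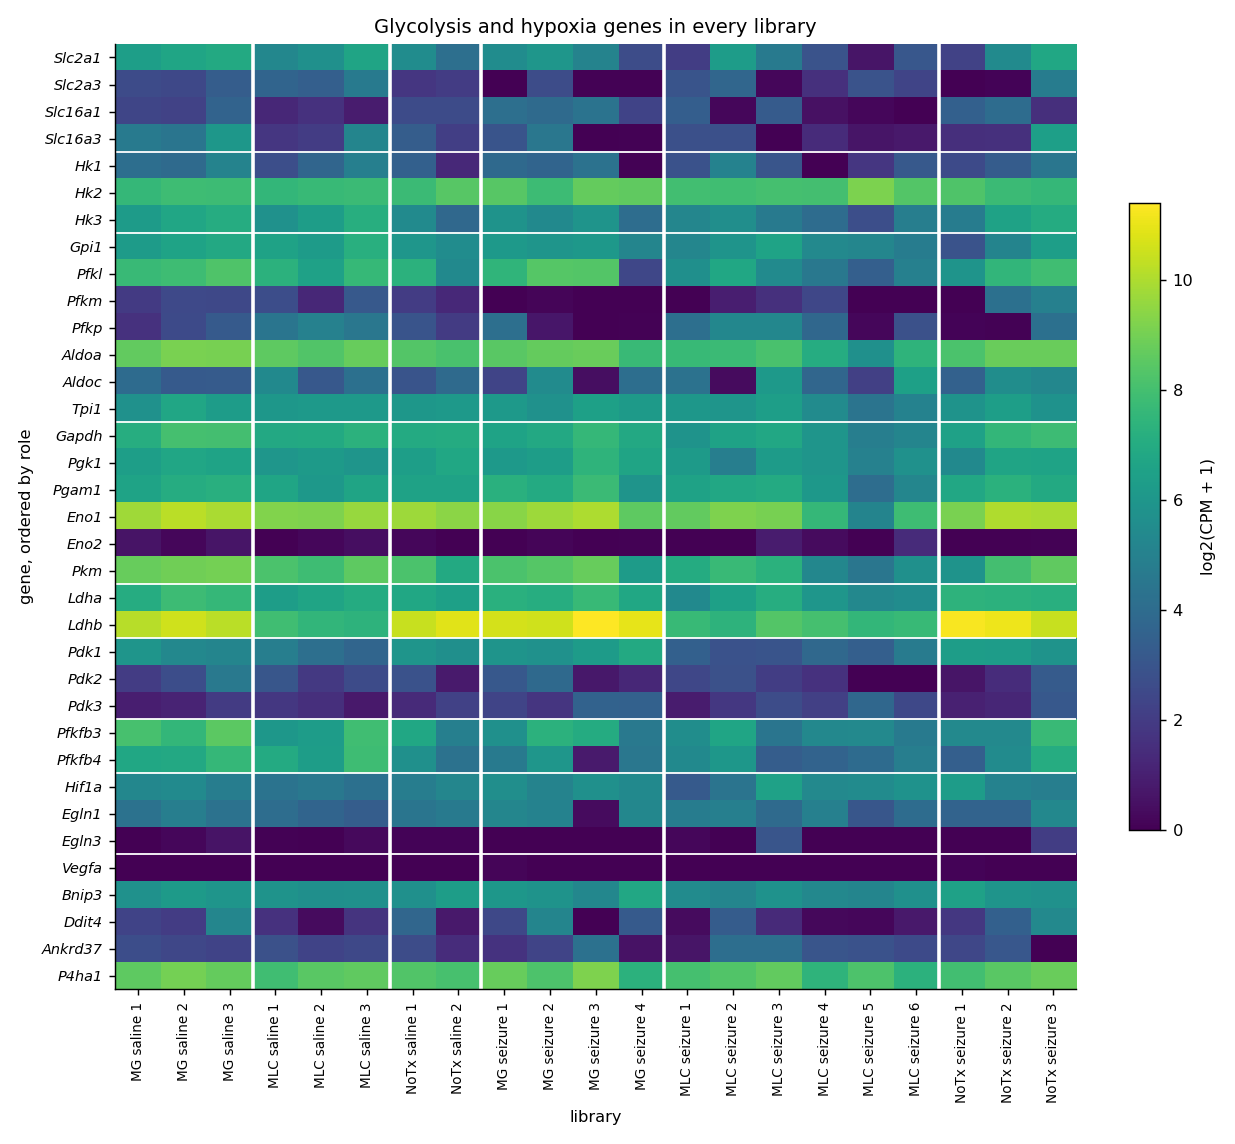
Level of the 35 members (rows, ordered by role, white lines between roles) in each of the 21 libraries (columns, white lines between groups) as log2(CPM + 1). Ldhb is brightest in the MG and NoTx columns, and the seizure columns of several transporters and phosphofructokinase forms alternate between dark and bright within a group.

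Of the enzymes from aldolase to pyruvate kinase, none was called by edgeR between MLC and MG cells in either treatment. Among 20 alternatives after seizures, 5 called Aldoa, 2 each Gapdh and Eno1, and 1 each Pkm and Pgam1. Aldoa, which cleaves the 6-carbon sugar, and Gapdh, which makes the first NADH of the pathway, were called lower in MLC than in NoTx cells after seizures. With Ldhb, Pdk1 and Ldha they made 5 of 34 members called lower there, where 6.16% of all genes tested were called in either direction and 3.61% lower. After saline Ldhb alone of 34 members was called between MLC and NoTx, where 1.26% of all genes were (0.811% lower). Without regard to a call, the MLC saline libraries lay above both NoTx libraries for 5 members, where 15.3% of all genes did, and below them for 6, where 18% did. The median log2 fold change of the members against NoTx was -0.76 after seizures (0 over all genes) and 0.25 after saline (0.08 over all genes). The saline median took either sign over the alternatives, from -0.05 with the replicate block to 0.53 without NoTx replicate 1, and was -0.01 without MLC replicate 3. After seizures it ran from -1.21 without MLC replicate 2 to -0.29 without NoTx replicate 3.
Aldoa after seizures was 283, 443.5 and 441 CPM in NoTx cells and ran from 51.2 CPM, with a median of 185.5, to 273 CPM in the 6 MLC libraries. The groups did not overlap (log2 fold change -1.16, SE 0.34, edgeR adjusted p = 0.045, 2.23-fold lower). In all, 4 of the 34 members were lower in MLC without overlap there, where 5.1% of all genes were. Gapdh was 89.8, 188 and 220 CPM in NoTx and 28.01 to 111 CPM, with a median of 58.1, in MLC cells, and NoTx replicate 1 overlapped with MLC replicates 2 and 3 (log2 fold change -1.37, SE 0.37, adjusted p = 0.031, 2.58-fold lower). The Aldoa call was lost in 9 of 19 alternatives and the Gapdh call in 8 of 19, with adjusted p up to 0.179 and 0.165. Single left-out libraries that ended them were MLC replicates 1, 4 and 6 and NoTx replicates 2 and 3 for Aldoa (adjusted p = 0.0571, 0.0917, 0.0804, 0.155 and 0.151) and these and MLC replicate 5 for Gapdh (0.0568, 0.055, 0.0628, 0.112, 0.165 and 0.0576). For Ldha against NoTx they were MLC replicates 1, 4, 5 and 6 and each NoTx replicate (0.071, 0.0652, 0.072, 0.0732, 0.0893, 0.102 and 0.0784). The share of counts from mitochondrial genes was 0.661% to 2.51% in MLC and 0.522% to 0.943% in NoTx seizure libraries. The 8 neutrophil markers summed to 6.57 to 820 CPM in NoTx and 3.48 to 18.5 CPM in MLC seizure libraries, and 6 markers of border macrophages to 5.33 to 44.9 and 855 to 1430 CPM. The part of each in these differences was not tested.
After saline the same enzymes were closer. Aldoa was 400, 542 and 537 CPM in MG, 374, 316 and 426 CPM in MLC, and 319 and 275 CPM in NoTx libraries. Gapdh was 137, 259 and 255 CPM in MG, 115, 121 and 161 CPM in MLC, and 122 and 127 CPM in NoTx libraries. In MG seizure libraries Aldoa was 349, 412, 441 and 207 CPM and Gapdh 95.1, 117, 193 and 117 CPM. Both overlapped between MLC and MG after seizures, and Aldoa between MLC and both other groups after saline.
Of the remaining enzymes, Eno1, the main enolase, was 862 to 1194 CPM in MG saline and 587 to 782 CPM in MLC saline libraries, without overlap and not called (log2 fold change -0.63, SE 0.58). Pkm, pyruvate kinase, was 429 to 516 and 229 to 381 CPM, and Pgk1, which makes the first ATP of the pathway, was 82.8 to 105.4 and 59.4 to 72.8 CPM in the same libraries, also without overlap and not called. In all, 11 members had every MLC saline library below every MG saline library, where 12.4% of all genes did. They were Pfkl, Pgk1, Eno1, Pkm, Ldha, Ldhb, Pdk1, Slc16a1, Hif1a, Egln1 and Ddit4. After seizures only Ldhb and Pdk1 of the 34 did so, where 2.96% of all genes did. Tpi1 and Pgam1 overlapped between MLC and MG cells in both treatments. Of the brain forms, Eno2 was at most 1.65 CPM in any library. Aldoc ran from 0.269 to 88.9 CPM, and its share of aldolase per kilobase reached 32% in MLC seizure replicate 6.

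Pfkfb3 and Pfkfb4 make the sugar bisphosphate that activates phosphofructokinase. Pfkfb3 was 187 to 363 CPM in MG saline, 63.7 to 240.3 in MLC saline and 28.9 to 108 in NoTx saline libraries. Pfkfb4 was 110 to 189 CPM in MG and 80.6 to 233 CPM in MLC saline libraries. Neither was called between any groups by edgeR.
Of the HIF pathway, Hif1a encodes the regulated subunit of HIF-1, and Egln1 and Egln3 encode prolyl hydroxylases that mark it for destruction. Hif1a was 27.1 to 42.2 CPM in MG and 17.5 to 22.3 CPM in MLC saline libraries, without overlap (log2 fold change -0.86, SE 0.59, adjusted p = 0.975). After seizures it was 33.3 to 51.7 CPM in MG and 8.34 to 90.3 CPM in MLC cells. Egln1 was 18.8 to 27.98 CPM in MG and 9.25 to 15.8 CPM in MLC saline libraries, and Egln3 was at most 0.5 CPM in all saline libraries. Among HIF targets, Bnip3, which acts in removal of mitochondria, was 49.4 to 56.1 CPM in MLC and 53.1 to 72.9 CPM in MG saline libraries. P4ha1, a collagen prolyl hydroxylase, was 239 to 388 and 375 to 508 CPM. Ddit4, an inhibitor of mTOR signalling, was 0.27 to 2.24 CPM in MLC and 3.10 to 36.7 CPM in MG saline libraries. Ankrd37 was 3.88 to 6.10 and 3.83 to 5.38 CPM. None of these HIF pathway genes or targets was called in any comparison by edgeR.

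Other genes of the same pathways were read from lists of 37 glycolysis and 32 hypoxia genes, of which 28 and 28 were tested. Between MLC and MG cells after saline, edgeR called 0 of 28 glycolysis genes higher and 1 lower, and 0 of 28 hypoxia genes. Of all genes tested, 1.58% were called there. Of the 28 hypoxia genes 1 had an unadjusted p under 0.05, where 8% of all genes did. After seizures 1 glycolysis gene was called higher and 2 lower, and 3 hypoxia genes higher and 1 lower, where 5.88% of all genes were called.
Slc2a5, a fructose transporter that marks microglia, was 1129, 1680 and 1692 CPM in MG and 9.10, 6.58 and 23.5 CPM in MLC saline libraries. After seizures it was 624, 1066, 1103 and 279 CPM in MG, and from 1.83 to 31.0 CPM in MLC libraries. The log2 fold changes were -6.84 (SE 0.88, edgeR adjusted p = 4.3e-05) and -5.79 (SE 0.61, adjusted p = 1.2e-06), the groups lying far apart in both treatments.
Mpc1, a subunit of the carrier that brings pyruvate into mitochondria, was 227, 297, 408 and 522.5 CPM in MG and 107 to 269 CPM in MLC seizure libraries, with overlap (a log2 fold change of -0.92, SE 0.27, adjusted p = 0.043). Against NoTx its log2 fold change in MLC cells was -1.67 (SE 0.38, adjusted p = 0.0254) after saline and -1.20 (SE 0.29, adjusted p = 0.0122) after seizures. Slc16a7, another carrier of lactate and pyruvate, was higher in MLC cells after seizures, at 30.7 to 55.0 CPM against 23.5, 19.3, 3.79 and 7.75 CPM in MG libraries (a log2 fold change of 1.68, SE 0.47, adjusted p = 0.0358). The NoTx seizure libraries, at 31.6 ± 16.7 CPM (SD, n = 3) and up to 49.3 CPM, overlapped with both. After saline its mean was 35.4 ± 15.6 CPM in MLC and 35.3 ± 5.24 CPM in MG (SD, n = 3 each).
Among the called hypoxia genes, Tfrc, the transferrin receptor, was 0 to 88.2 CPM in MG seizure and 0.0863 to 2.00 CPM in MLC seizure libraries (adjusted p = 0.0173). Rora, a nuclear receptor, was 7.04 to 21.4 CPM in MLC and 0 to 0.491 CPM in MG seizure libraries (adjusted p = 0.00715). P4ha2 was listed at 0 in all 4 MG and in 2 of 6 MLC seizure libraries, and reached 7.37 CPM in MLC (adjusted p = 0.0338).

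Transplanted and resident microglia were not told apart by the test on these genes. In edgeR 0 of 34 members were called between MG and NoTx after saline, where 0.053% of all genes were, and 2 had an unadjusted p under 0.05 (3.4% of all genes). DESeq2 called 0 and limma-voom 2. The 2 were Hk3 and Pfkfb3. Hk3 was 75.4, 105.2 and 130.5 CPM in MG and 42.1 and 13.5 CPM in NoTx libraries (log2 fold change 1.90, SE 0.79, edgeR adjusted p = 1). Pfkfb3 gave 2.00 (SE 0.89, edgeR adjusted p = 1). Of the 34 members 16 were higher in MG without overlap, where 18.5% of all genes were, and the median log2 fold change was 0.77 against 0.02 over all genes (0.30 with the replicate block). Among the 16 were Slc2a1, Slc2a3, Slc16a3, Hk1, Hk3, Gpi1, Pfkl and Aldoa. The NoTx saline group has 2 libraries, in which the summed level of 8 neutrophil markers was 69.9 and 1655 CPM, against at most 8.32 CPM in MG saline libraries. There, 5 blood monocyte markers summed to 102 to 516 CPM in NoTx and 7.47 to 18.4 CPM in MG, and 6 border macrophage markers to 157.5 to 227 and 10.1 to 30.3 CPM. The part of RNA from these cells in the difference was not tested.
After seizures 0 members were called between MG and NoTx by edgeR, where 0.0742% of all genes were, 2 had an unadjusted p under 0.05 (11.1% of all genes), and DESeq2 called 1 and limma-voom 0. No member was without overlap, where 3.86% of all genes were. The median log2 fold change was -0.06 against 0 over all genes, and 5 of 17 alternatives gave the opposite sign, up to 0.17 without NoTx replicate 3.

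Between seizure and saline libraries no member was called in any of the cell origins. In MG cells edgeR called 0 members, where 0.0371% of all genes were called, 6 had an unadjusted p under 0.05 (11.8% of all genes), and DESeq2 called 1 and limma-voom 0. In MLC cells edgeR called 0 of 34 and 0% of all genes, 10 members had an unadjusted p under 0.05 (11.9% of all genes), and DESeq2 called 0 and limma-voom 1. In NoTx cells edgeR called 0, where 0.106% of all genes were, 0 had an unadjusted p under 0.05 (7.35% of all genes), and DESeq2 and limma-voom called 0.
The MG seizure libraries lay below all MG saline libraries for 7 members, Slc2a1, Hk3, Gpi1, Pfkm, Eno2, Pfkfb3 and Pfkfb4, where 11.9% of all genes did. Pfkfb3 was 269, 187 and 363 CPM in the saline and 51.9, 158.5, 129 and 23.5 CPM in the seizure libraries, and was not called (log2 fold change -1.59, SE 0.69, edgeR adjusted p = 0.397). In MLC cells 6 members, Hk3, Aldoa, Gapdh, Eno1, Pkm and Pfkfb4, were lower without overlap, where 5.05% of all genes were, and Aldoa had a log2 fold change of -1.09 (SE 0.34, adjusted p = 0.304). In NoTx cells Pgam1 and Ldha, 2 of 34, were higher without overlap, where 4.96% of all genes were. The median log2 fold change of the members was -0.28 in MG (-0.08 over all genes), -0.52 in MLC (-0.06) and 0.41 in NoTx (0). Over the alternatives it ran from -0.57 (without MG seizure replicate 2) to -0.13 in MG, from -1.39 (code block) to -0.03 (replicate block) in MLC, and from -0.25 (code block) to 0.84 (without saline replicate 1) in NoTx.
A test of whether the difference between MLC and MG cells changed with seizure called 0 members and 0% of all genes with edgeR, 2 members had an unadjusted p under 0.05 (5.49% of all genes), and DESeq2 and limma-voom called 0.

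The members varied more within groups after seizures than after saline. The median over members of the within-group SD of log2 expression was 0.45 after saline and 1.05 after seizures, against 0.38 and 0.78 over all genes tested. All 34 tested members had the larger SD after seizures, as did 86.7% of all genes. Slc2a3, Pfkm and Pfkp show this spread in the map of levels by library, with values near 0 beside clear signal within the same seizure group. Depth and the number of genes detected also varied more among seizure libraries, and their part in the spread was not tested.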

How the data were processed

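RNA of 21 libraries of sorted cells was sequenced from kits for low input. The authors deposited 1 table of estimated counts per gene, not normalized. Per the submitters' processing notes, Trim Galore 0.6.7, cutadapt 3.4, STAR 2.7.10a, featureCounts, Subread 2.4.5 and DESeq2 1.36.0 were used with genome GRCm39. The tool that made fractional values (28.2% to 45.4% of values above 0 in a library) was not given in the sources used here. Reads shared between near-identical copies may be split among them: 14 of the 35 members, Ldhb and Ldha included, had fractional values in 10 or more libraries and are uncertain to that extent. No molecular identifiers are named, so PCR copies are counted and depth covers counting error only.

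Estimated counts were rounded to whole numbers. A single edgeR 4.0.16 quasi-likelihood fit (R 4.3.3, TMM scaling, filterByExpr by group, robust) took all 21 libraries with 6 group means. Benjamini-Hochberg adjustment ran over 18867 genes per comparison, and genes were called at an adjusted p under 0.05. The fit was tested on simulated data. The standard error is the log2 fold change divided by the square root of the F statistic. CPM values are counts scaled to the TMM-adjusted total of the genes tested, except that Xist and Y-linked levels were scaled to the plain library total. Lengths for levels per kilobase are exon unions of GENCODE vM21. DESeq2 1.42.0 and limma-voom 3.58.1 with quality weights, other scaling and filters, GC correction, replicate and code blocks, and left-out libraries were alternatives.

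All members were accounted for by name, those called with their value in every library or the range of groups above 5, and other pathway genes only if called between MLC and MG. Values of 1 called gene of the hypoxia list are not reported here. The members and gene lists were chosen with earlier results of these data known. Replicate numbers were not used to pair the libraries in the main fit. Same-numbered libraries of different groups had deviations correlated at -0.06 to 0.13. With groups as small as 2 libraries, such correlations cannot decide whether the numbers pair them.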

Additional observations from a re-analysis of the deposited data

Results flagged for a closer look

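In groups of 4 to 10 libraries, a value was marked when its gap to the nearest library exceeded Dixon's critical value at 95% confidence for the group's range. Of 68 groups of values tested (34 members in MG and in MLC seizure libraries) 12 were marked, and chance marks about 1 in 20. All values are in CPM.

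MLC seizure replicate 2 accounted for 4 of them, as the highest library for Slc2a1 (76.4, next 24.8), Hk1 (31.8, next 8.07), Pfkfb3 (103.6, next 46.6) and Ddit4 (8.89, next 1.54). MLC seizure replicate 5, the library of few genes, was highest for Hk2 (560.4, next 325.9) and Pdk3 (12.99, next 5.32). MLC seizure replicate 6 was highest for Pdk1 (25.8, next 13.5), still below all MG and NoTx libraries. MLC seizure replicate 3 was highest for Egln3 (6.999, next 0.139).

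In MG seizure cells, replicate 1 was highest for Pfkp (16.8, next 0.623) and replicate 2 for Slc2a3 (5.23, next 0.053). Replicate 3, a library of few genes, was lowest for Egln1 (0.265, next 32.4) and the only one with Egln3 above 0 (0.0265, from 1 count).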

How the results depend on the processing

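Each count of members called is given with the number of all genes called in the same setting. Between MLC and MG after saline it was 1 (299 genes), with 3 under limma-voom (1698 genes) and 2 with only those groups in the fit (872 genes). After seizures it was 3 (1109 genes), with 5 under DESeq2 (2447 genes), 9 with the library code as a block (1207 genes), and 2 to 5 when single libraries were left out. Between MLC and NoTx it was 1 after saline (237 genes), with 4 under limma-voom (1551 genes). After seizures it was 5 (1162 genes), with 2 when only those groups were fitted (606 genes), 2 with GC correction (1150 genes), and 2 to 7 when single libraries were left out. The counts of 0 became 2 for MG against NoTx after saline under limma-voom (439 genes), 1 after seizures under DESeq2 (627 genes), 1 for seizure against saline in MG under DESeq2 (274 genes), and 1 in MLC under limma-voom (103 genes). Leaving out single libraries kept the other counts at 1 (MLC against MG and NoTx after saline) or 0. Without the libraries coded 11b the seizure counts were 3 and 5, with each named call kept. Without the 3 libraries of few genes they were also 3 and 5, but Ldha was not among them (adjusted p = 0.241 and 0.0523), so the members called were in part different.

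With the replicate number as a block, 1 member was called between MLC and MG after saline and 4 after seizures, and 3 between MLC and NoTx after seizures. The labels do not say whether the numbers pair libraries (3 of 7 saline pairs and 1 of 10 seizure pairs correlated above 0.1). Where counts moved, the cause was not tested. With the size factors of DESeq2 (RLE), log2 fold changes over all genes moved by a median per-gene difference of 0.17 for MLC against MG after seizures. The same difference was 0.14 for MLC against NoTx after seizures and 0.12 in the interaction. The share of higher genes among those called between MLC and MG after seizures went from 42.7% to 53.3%. Vegfa, Egln3 and Eno2 had few counts, at 3, 349 and 142 over all libraries, and the part of depth in this was not tested.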
